A study of Rattus norvegicus with 4 samples.

Results

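The ribosome footprints of 10 genes of the microtubule system were examined in cultured heart muscle cells: the α-tubulins Tuba1b, Tuba1c and Tuba4a, the β-tubulins Tubb5, Tubb4b, Tubb6, Tubb3, Tubb2a and Tubb2b, and the microtubule-associated protein Map4. They were chosen by name among 13694 genes with an annotated open reading frame (ORF), and for each gene the annotated ORF with most counts over all libraries was used. The cells were neonatal rat ventricular cardiomyocytes, taken from 2-day-old Sprague-Dawley pups and grown in medium with fetal bovine serum. They were enriched for cardiomyocytes by preplating the digested tissue, which removes cells that attach fast. In 2 libraries the cells had been treated with phenylephrine (PE), an adrenergic agonist that makes cultured cardiomyocytes grow, at 20 µM for 24 h. The other 2 libraries came from untreated cells. Each value is a count of RNA fragments protected by ribosomes, so it reflects the amount of mRNA together with how heavily it was translated. Whether the 2 libraries of a group stem from independent cultures is not labelled. The p-values therefore measure only the spread between these libraries, which may be technical.

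Microtubules are hollow filaments built from dimers of α- and β-tubulin, and most animals carry several closely related genes for each. In cardiomyocytes they surround the nucleus and run between the myofibrils, where they carry cargo and resist shortening. A denser network with more MAP4 on it has been described in pressure-overloaded hearts, and removal of the last tyrosine of α-tubulin, called detyrosination, stiffens the cell. Cells also limit their own tubulin supply: when free dimers are plentiful, the factor TTC5 binds tubulin chains as they leave the ribosome and the mRNA being translated is destroyed.

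After PE, 5 of the 10 members had more footprints (Tubb4b, Tubb6, Tubb5, Tubb3 and Tuba4a), 1 had fewer (Tuba1b) and 4 did not pass the test (Tuba1c, Tubb2a, Tubb2b and Map4). The increases were modest, the largest of them 1.73-fold on Tubb4b. With edgeR (quasi-likelihood test, Benjamini-Hochberg adjusted p under 0.05), 42.7% of all 12609 tested ORFs were called, 21.4% higher in PE and 21.3% lower. With 1 annotated ORF per gene this background was 45.2%. Among 3748 genes whose ORF averaged at least 500 counts per library it was 67.2%, made up of 36.9% higher and 30.3% lower. The 6 members that passed averaged at least 589 counts per library, and the 4 that did not averaged at most 203.8. The median log2 fold change was 0.23 over the members and 0.00 over all ORFs tested.

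How much of each gene's signal entered the counts differed widely among the members. The authors' annotation gives, pooled over all libraries, the number of P-sites on each ORF, that is footprints placed by the codon in the peptidyl site. Counts per P-site had a median of 1.12 over all ORFs, and 31.7% of ORFs had under 0.5. Tubb5 had 1.15 counts per P-site, Tuba4a 0.98, Tubb3 0.977 and Tubb6 0.876. Tubb4b had 0.369, Tubb2a 0.0982, Tuba1b 0.0466, Tubb2b 0.0419, Map4 0.0236 and Tuba1c 0.00938. For the last 5 genes the counts therefore cover a small part of the P-sites listed.

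**Figure D1:**
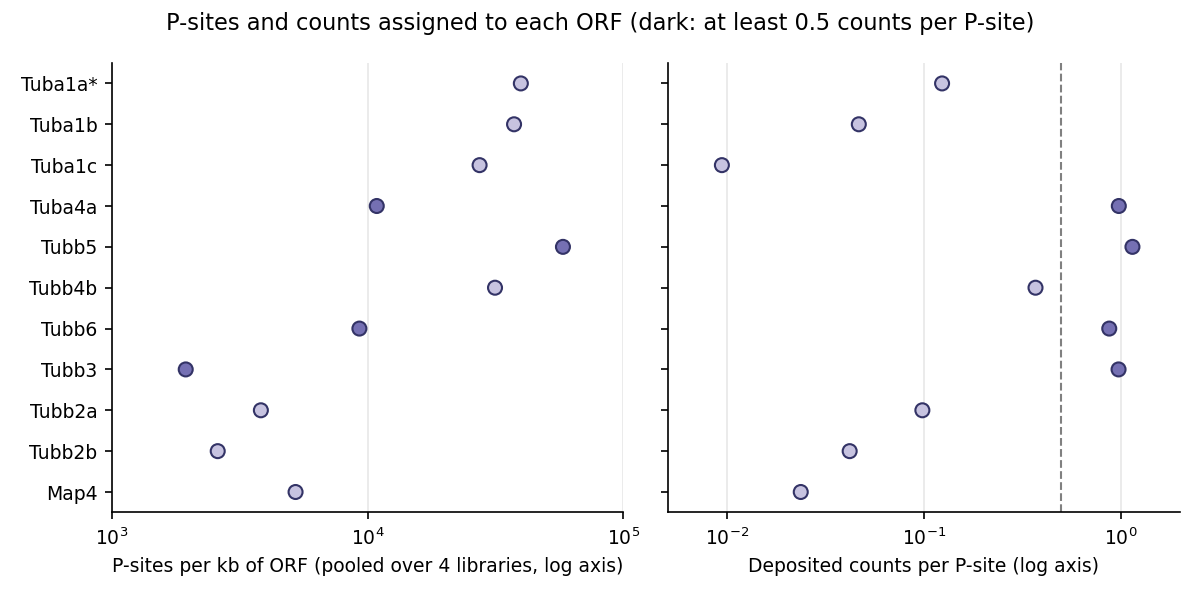
P-sites per kb of ORF, pooled over the 4 libraries (left), and deposited counts per P-site (right, dashed line at 0.5), both on log axes, with 1 point per gene. Dark points are genes with at least 0.5 counts per P-site. Tuba1a, marked with an asterisk, is not among the 10 genes. Tuba1a, Tuba1b and Tuba1c lie near the top on the left and far below the dashed line on the right.

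Among the 9 tubulin members, counts per P-site went with the similarity of the paralogues. Low values were not confined to tubulins, since 26.2% of all annotated ORFs had under 0.5 counts per P-site. Between the translated ORFs of the 14 α- and β-tubulin genes in the annotation, Tuba1b differed from its nearest relative Tuba1a at 2 residues, Tuba1c from Tuba1a at 7, and Tubb2a and Tubb2b from each other at 2. Tuba4a differed from its nearest relative at 14 residues, Tubb5 at 11, Tubb4b at 6, and Tubb3 and Tubb6 from each other at 32. Among the 9 tubulin members, those with at least 11 differences thus had 0.876 counts per P-site or more, and those with 2 to 7 had 0.369 or less. These are differences between proteins, and the similarity of the RNA fragments themselves was not tested. An α and a β chain were 40.5% to 42.9% identical. Map4 has no such relative here, but 2 annotated ORFs share its start, of 6603 and 3171 nt. These had 34497 and 33814 P-sites, and 815 and 0 counts. P-sites were thus listed on both of these overlapping ORFs. Whether P-sites were likewise listed on more than 1 tubulin gene was not tested, so the P-site numbers of paralogues are not added up here.

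Levels per length ordered the genes differently on these 2 scales. By P-sites per kb of ORF, Tubb5 was highest with 57991, followed by Tuba1b with 37343, Tubb4b with 31460, Tuba1c with 27382, Tuba4a with 10851 and Tubb6 with 9281. Map4 had 5224, Tubb2a 3823, Tubb2b 2593 and Tubb3 1944. By library-scaled counts (CPM, the counts divided by the scaled library total) per kb, Tubb5 was again highest, at 1530.3 in PE and 1149 in control libraries. Tubb4b had 297 CPM per kb in PE and 171 in control libraries, Tuba4a 228 and 198, and Tubb6 200.3 and 127. The other 6 genes lay between 2.31 and 41.3 CPM per kb in PE libraries and between 2.06 and 40.4 in control libraries. These were, from high to low in PE libraries, Tubb3, Tuba1b, Tubb2a, Tuba1c, Map4 and Tubb2b. In PE libraries each of the 10 genes lay above the next without overlap. In control libraries the order was Tuba4a before Tubb4b and Tuba1b before Tubb3, again without overlap. The place of Tubb4b depends on its annotated length of 1644 nt, against 1332 to 1350 nt for the other β members. Not divided by length, Tubb4b had 278 and 285 CPM in control libraries and Tuba4a 269 and 264. The low places of Tuba1b, Tuba1c and Map4 on the CPM scale stand beside their 0.0466, 0.00938 and 0.0236 counts per P-site. Map4 counts were divided by the full 6603 nt of its ORF, and which part of that length was counted was not tested. The reading frame was clear on all 10 ORFs, with 83.0% to 88.0% of P-sites in frame 0, against a median of 84.1% over annotated ORFs.

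**Figure D2:**
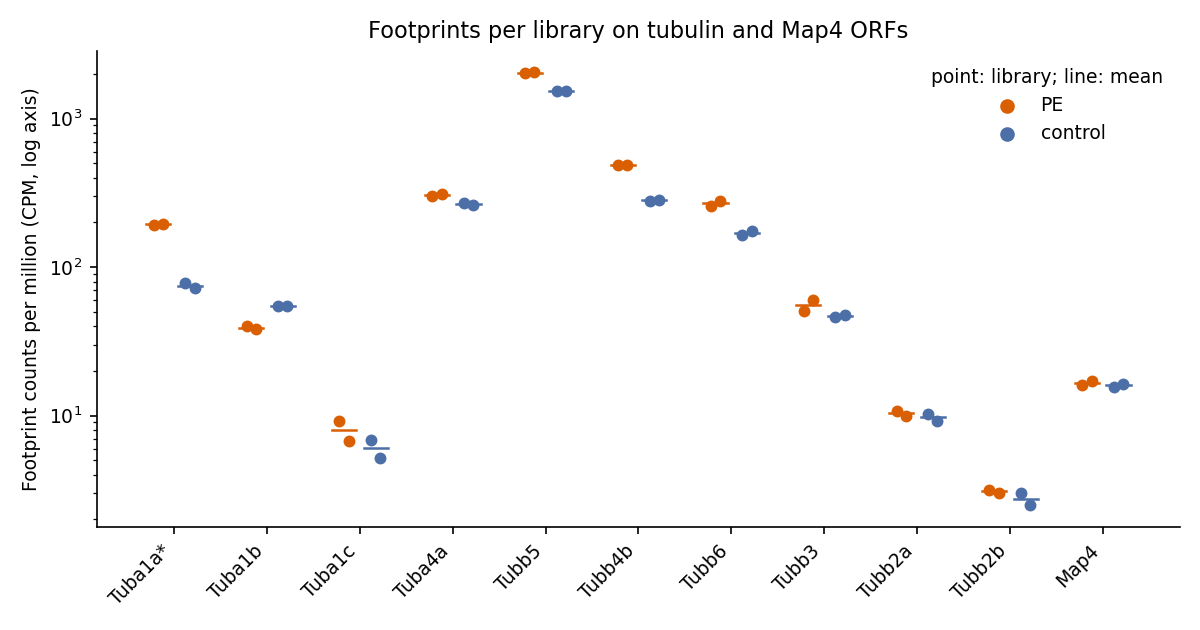
Footprints on each ORF in CPM on a log axis, with 1 point per library and a line at the mean, PE (orange) left of control (blue). Tuba1a, marked with an asterisk, is not among the 10 genes. Tubb5, Tubb4b, Tubb6, Tuba4a and Tubb3 have both PE libraries above both control libraries, and Tuba1b has both below.

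Among the β-tubulins, Tubb5, the widely expressed class I form (Rnor_6.0 chromosome 20, 3422644 to 3425733, plus strand), held most of the counts. It had 2027 and 2050.1 CPM in PE libraries, against 1537 and 1525 CPM in control libraries. Both PE libraries lay above both control libraries. The log2 fold change was 0.41 ± 0.02 (SE), with an adjusted p of 2.0e-20 (edgeR). Over 12 alternative settings it ranged between 0.37 and 0.44.

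Tubb4b, the widely expressed class IVb form (chromosome 3, 2441733 to 2444281, minus strand), changed most among the members. It had 486 and 491 CPM in PE libraries, against 278 and 285 CPM in control libraries, so the groups were clearly apart. The log2 fold change was 0.79 ± 0.03 (SE), with an adjusted p of 6.1e-22 (edgeR), and rests on 0.369 counts per P-site. Its annotated ORF encodes 548 residues, longer than the 444 to 450 of the other β members.

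Tubb6, the divergent class V form (chromosome 18, 63130573 to 63139805, plus strand), had 259.7 and 278 CPM in PE libraries, against 165 and 175 CPM in control libraries. The groups did not overlap. The log2 fold change was 0.66 ± 0.04 (SE), a 1.58-fold increase, with an adjusted p of 8.2e-16 (edgeR). Of the members with at least 0.5 counts per P-site it had the largest change.

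Tubb3, the class III form best known as a marker of neurons (chromosome 19, 56220808 to 56229452, plus strand), had 51.0 and 60.5 CPM in PE libraries, against 46.4 and 47.6 CPM in control libraries. The PE libraries were higher but also differed more from each other. The log2 fold change was 0.25 ± 0.08 (SE), with an adjusted p of 0.0081 (edgeR). Without PE replicate 2 it was 0.12, with an adjusted p of 0.33 in edgeR, and with DESeq2, which called 28.5% of ORFs, the adjusted p was 0.085. This call thus depends on that library and on the method. Of 4 listed neuronal markers, 2 were tested. Prph had at most 1.85 CPM and Elavl4 at most 0.641 CPM in any library, with 60 and 21 P-sites in all. Dbh had 0 counts beside 482 P-sites, so its counts do not measure its level. Uchl1, a deubiquitinase abundant in neurons, rose to 57.0 and 62.8 CPM in PE libraries, against 32.8 and 30.3 CPM in control libraries. Summed over the neuronal list, PE libraries had 59.2 and 64.2 CPM and control libraries 34.3 and 32.8 CPM, nearly all of it Uchl1. The part of such cells in the Tubb3 value was not tested.

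Tubb2a and Tubb2b, class II forms that are abundant in brain and lie close together on chromosome 17, were counted little. Tubb2a had 10.8 and 9.99 CPM in PE libraries, against 10.2 and 9.26 CPM in control libraries, and the groups overlapped. Tubb2b had 3.17 and 3.00 CPM in PE libraries, against 3.01 and 2.49 CPM in control libraries, again with overlap. The log2 fold changes were 0.09 ± 0.15 and 0.17 ± 0.29 (SE). Their standard errors are larger than the values. Changes of the size seen on Tuba4a could thus not be told apart from none with these few counts.

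Among the α-tubulins, Tuba4a (chromosome 9, 82415672 to 82419254, minus strand) was the α member with most counts per P-site. It had 303 and 311 CPM in PE libraries, against 269 and 264 CPM in control libraries. The groups did not overlap, and the log2 fold change of 0.21 ± 0.03 (SE) passed with an adjusted p of 1.3e-06 (edgeR). In the translated ORFs, Tuba4a and Tuba8 do not end in tyrosine, whereas Tuba1a, Tuba1b and Tuba1c do. The tyrosine-ending genes are those whose chains can pass through the cycle of detyrosination and retyrosination as made.

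Tuba1b, a widely expressed form (chromosome 7, 140614905 to 140617622, minus strand), was the only member that fell. It had 40.4 and 38.1 CPM in PE libraries, against 54.6 and 54.8 CPM in control libraries. Both PE libraries lay below both control libraries, and the log2 fold change was -0.48 ± 0.07 (SE), with an adjusted p of 1.5e-06 (edgeR). This change rests on 2356 counts in all, beside 50525 P-sites. Tuba1c (chromosome 7, 140716195 to 140723613, plus strand) had 9.19 and 6.74 CPM in PE libraries, against 6.88 and 5.20 CPM in control libraries. The groups overlapped, and the log2 fold change of 0.41 ± 0.20 (SE) did not pass (adjusted p = 0.10 in edgeR). Without PE replicate 2 or without control replicate 1 it passed, with adjusted p of 0.025 and 0.027 in edgeR.

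The paralogue Tuba1a, which differs from Tuba1b at 2 residues, went the opposite way. It had 193 and 195 CPM in PE libraries, against 78.3 and 72.2 CPM in control libraries. The log2 fold change was 1.37 ± 0.05 (SE), larger than that of any of the 10 members, with 0.124 counts per P-site and an adjusted p = 7.4e-22 (edgeR). How reads that match both genes were counted is not given in the sources used here, so the split between Tuba1a and Tuba1b carries that uncertainty.

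Map4 (chromosome 8, 118067006 to 118157834, plus strand) encodes the main structural microtubule-associated protein outside neurons, which binds along the filament and stabilizes it. It had 16.1 and 17.1 CPM in PE libraries, against 15.5 and 16.5 CPM in control libraries. The groups overlapped, and the log2 fold change was 0.06 ± 0.12 (SE; adjusted p = 0.76 in edgeR). With 815 of its counts beside 34497 P-sites, this value covers little of the gene's signal. It is the value of the 6603 nt ORF alone. The 3171 nt ORF with the same start had 0 counts beside 33814 P-sites. Which part of the longer ORF the counts come from was not tested. When a loess trend of fold change against ORF length, fitted over all tested ORFs, was subtracted, Map4 had a log2 fold change of 0.32 (adjusted p = 0.031, edgeR).

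**Figure D3:**
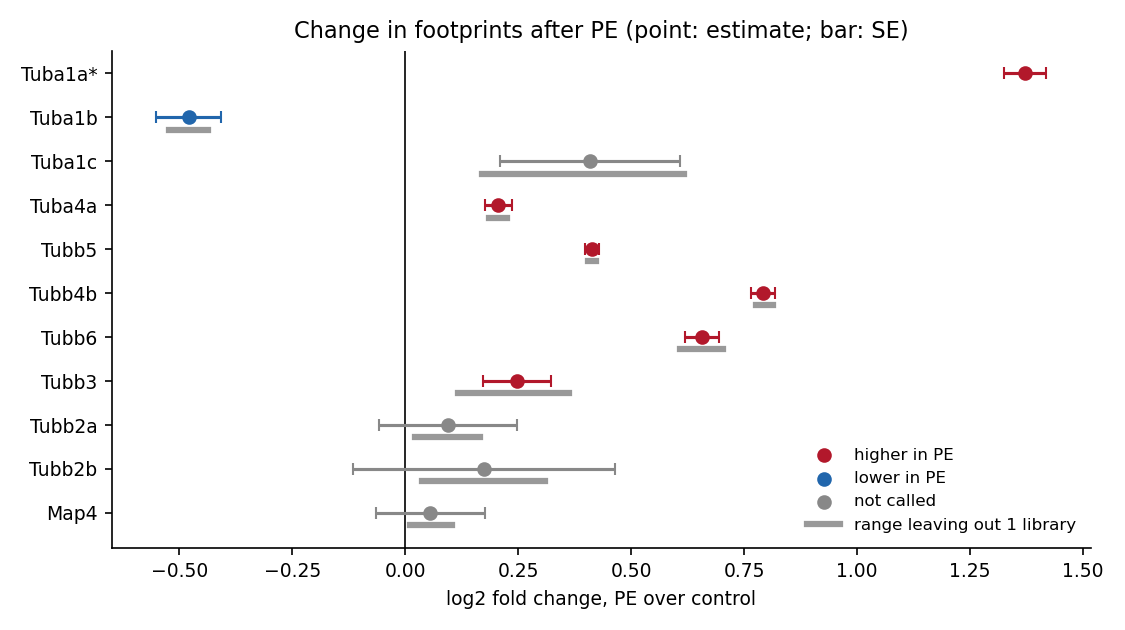
log2 fold change of PE over control for each gene (horizontal axis), with bars for the SE and a grey bar beneath for the range when 1 library is left out; no such range is drawn for Tuba1a (asterisk), which is not among the 10 genes. Red points were higher in PE, blue lower and grey not called. Tubb4b and Tubb6 lie to the right of Tubb5, and Tuba1b lies to the left of 0.

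In the authors' deposited table of a DESeq2 comparison, the log2 fold changes of the 10 members were nearly the same as here, from -0.48 for Tuba1b to 0.79 for Tubb4b. By adjusted p in the authors' deposited table, Tubb5 (1.0e-96), Tubb4b, Tubb6, Tuba4a and Tuba1b passed and Tubb3 did not (0.103). Members whose groups did not overlap numbered 6 of 10, where the groups of 68.6% of all tested ORFs did not overlap, or 70.3% with 1 annotated ORF per gene.

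Summed over the 6 β members, PE libraries had 2837 and 2892 CPM and control libraries 2040.3 and 2044 CPM, a ratio of 1.40. The sum of the 3 α members was 353 and 356 CPM in PE libraries and 330.04 and 324 CPM in control libraries, a ratio of 1.08. With Tuba1a added, a choice made after seeing the data, the α sum was 546 and 551 CPM in PE libraries and 408 and 396 CPM in control libraries, a ratio of 1.36. The α sum thus depends on which genes enter, and it is mostly Tuba4a where Tuba1a is left out.

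The β members did not rise in equal measure. As a share of the summed β counts, Tubb4b held 17.1% and 17.0% in PE libraries, against 13.6% and 14.0% in control libraries. Tubb6 held 9.15% and 9.60% in PE libraries, against 8.11% and 8.55% in control libraries. Tubb5 held 71.4% and 70.9% in PE libraries, against 75.3% and 74.6% in control libraries. Here too the shares are of counts and not of translation, since Tubb5 had 1.15 counts per P-site, Tubb6 0.876 and Tubb4b 0.369. These shares were tested in edgeR on all ORFs, with the summed β counts as library size, a fit in which 71.3% of all ORFs were called. Each member is itself part of those summed counts, so a rise of 1 member lowers the shares of the others. Relative to its family, Tubb4b had a log2 fold change of 0.30 ± 0.03 (SE, adjusted p = 2.9e-19 in edgeR), Tubb6 of 0.17 ± 0.04 and Tubb5 of -0.07 ± 0.02. All 3 passed under each of 6 alternative settings. Tubb3 at -0.24 and Tubb2a at -0.39 passed too, but the call of Tubb3 was gone without PE replicate 1 (-0.14, adjusted p = 0.14 in edgeR). For Tubb2a the call was gone without PE replicate 2 (-0.33) or control replicate 1 (-0.32), with an edgeR adjusted p = 0.14 each.

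Among the α members, with their summed counts as library size, the member itself included, 45.0% of all ORFs were called. Tuba1b held 11.5% and 10.7% of the α counts in PE libraries, against 16.5% and 16.9% in control libraries. Its log2 fold change relative to the family was -0.59 ± 0.08 (SE, adjusted p = 6.8e-10 in edgeR). Tuba4a held 85.9% and 87.4% in PE libraries, against 81.4% and 81.5% in control libraries. These shares are of counts and not of translation, since Tuba4a had 0.98 counts per P-site, Tuba1b 0.0466 and Tuba1c 0.00938. By P-sites Tuba4a was the lowest of the 3, with 14584 on Tuba4a, 50525 on Tuba1b and 36884 on Tuba1c. The relative value of Tuba4a, 0.09 ± 0.03 (adjusted p = 0.027 in edgeR) no longer passed when any 1 library was left out, with adjusted p of 0.052 to 0.20 in edgeR.

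**Figure D4:**
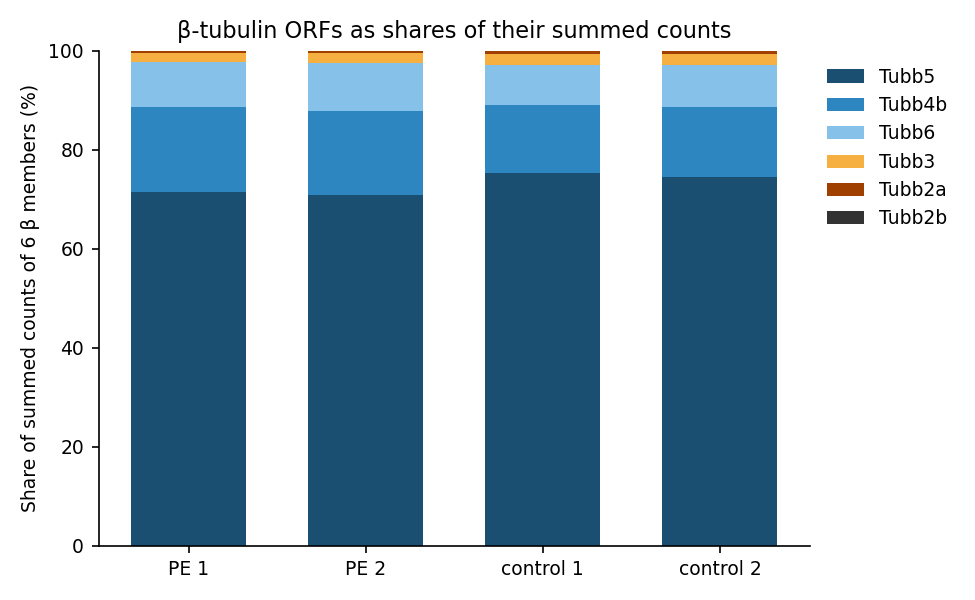
Share of the summed counts of the 6 β members held by each, in percent, as stacked bars for the PE and control libraries. Tubb4b holds 17.0% or 17.1% in the PE libraries and 13.6% or 14.0% in the control libraries, and Tubb5 holds the largest share in every library. Shares are of counts and not of translation, since Tubb5 had 1.15 and Tubb4b 0.369 counts per P-site.

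Promoters are shown for the 3 β members with the clearest increases and for Tuba1b, which fell. They are the 250 bases before the RefSeq transcription start, on the build GRCr8 and not on the files' Rnor_6.0, written 5′ to 3′ on the gene's strand. Capitals mark the CCAAT box (CCAAT), the GC box (GGGCGG) and the TATA box (TATAAA), searched on both strands, and no match overlaps another in these windows.
Tubb5, chr20:2917327-2917576, plus strand: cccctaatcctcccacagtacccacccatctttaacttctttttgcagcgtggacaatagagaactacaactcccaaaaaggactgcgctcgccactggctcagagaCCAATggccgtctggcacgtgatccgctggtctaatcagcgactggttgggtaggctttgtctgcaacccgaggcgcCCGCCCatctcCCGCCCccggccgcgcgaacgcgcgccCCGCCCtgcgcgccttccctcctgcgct
Tubb4b, chr3:28438456-28438705, minus strand: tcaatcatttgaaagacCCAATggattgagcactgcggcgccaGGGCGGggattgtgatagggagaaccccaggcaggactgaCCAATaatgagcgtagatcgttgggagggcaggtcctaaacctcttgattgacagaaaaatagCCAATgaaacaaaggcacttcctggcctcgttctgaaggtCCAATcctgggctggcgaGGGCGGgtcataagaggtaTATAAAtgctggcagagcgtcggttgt
Tubb6, chr18:63213037-63213286, plus strand: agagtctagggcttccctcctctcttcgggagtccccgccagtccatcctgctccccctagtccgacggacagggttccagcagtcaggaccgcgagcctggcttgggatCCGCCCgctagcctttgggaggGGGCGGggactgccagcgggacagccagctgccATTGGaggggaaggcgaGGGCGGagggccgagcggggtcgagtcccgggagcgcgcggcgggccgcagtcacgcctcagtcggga
Tuba1b, chr7:131972588-131972837, minus strand: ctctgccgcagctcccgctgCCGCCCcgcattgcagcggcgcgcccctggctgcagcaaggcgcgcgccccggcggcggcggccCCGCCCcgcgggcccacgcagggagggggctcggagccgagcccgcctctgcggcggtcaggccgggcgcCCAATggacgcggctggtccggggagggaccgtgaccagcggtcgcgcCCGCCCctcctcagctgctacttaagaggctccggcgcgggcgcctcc

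Of the 10 members, 9 had a promoter entry. The letters of the CCAAT box were present in 7 of these 9, those of the GC box in 8 and those of the TATA box in 2. Among all 33469 promoter windows of that length, 34.0% held a CCAAT box, 30.5% a GC box and 12.9% a TATA box. Tubb4b, the member with the largest increase, held 4 CCAAT boxes, 2 GC boxes and 1 TATA box. Tubb5, Tubb6 and Tuba1b each held 1 CCAAT box, 3 GC boxes and no TATA box. These letters are therefore shared between genes that rose and the gene that fell, and a match is a description only.

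The genes around the members were read from 9 lists of microtubule biology, 155 genes in all, of which 117 were tested. Of these, 38 were higher and 21 lower, that is 32.5% and 17.9%. Over all 11286 genes with a tested annotated ORF, 22.3% were higher and 22.8% lower. Among those averaging at least 500 counts per library, a depth that many but not all list genes reached, 36.9% were higher and 30.3% lower. The median log2 fold change was 0.07 over the lists.

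Of the other tubulins, 9 of 11 were listed and 6 tested, with 1 higher (Tuba1a) and 1 lower. The lower gene was Tuba8, an α form found in muscle and testis. It had 1.5 and 1.7 CPM in PE libraries, against 5.42 and 5.27 CPM in control libraries, with a log2 fold change of -1.73 ± 0.28 (SE). γ-Tubulin Tubg1, which seeds new microtubules, had 0.04 and did not pass, and Tubg2 had 0.66 ± 0.51, Tubd1 -0.30 and Tube1 -0.06.

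Folding of tubulin needs prefoldin, the CCT chaperonin and dedicated cofactors. Of 15 tested genes for folding cofactors, prefoldin and autoregulation, 5 were higher and 1 lower. The lower gene, Scaper (-0.35), lost its call with DESeq2, without control replicate 2 and with the length trend subtracted, which left 0 lower in each. The prefoldin subunit Pfdn1 had 229 and 232 CPM in PE libraries, against 106 and 110.5 CPM in control libraries, a log2 fold change of 1.09 ± 0.04 (SE). Pfdn4 rose by 0.55, the cofactor Tbcc, which acts on the dimer in its last folding step, by 0.40, and Tbca, which holds β-tubulin, by 0.29. With the length trend subtracted Tbca had 0.18. Ttc5, the factor of tubulin autoregulation, had 17.2 and 15.5 CPM in PE libraries, against 16.4 and 18 CPM in control libraries. The groups overlapped, and its log2 fold change was -0.08 ± 0.12 (SE). Of the 8 CCT subunits, 6 were higher and 0 lower, with a median of 0.18 on the log2 scale. All 8 had over 500 counts in each library, and of genes averaging at least 500 counts 36.9% were higher. Tcp1, Cct3 and Cct6a had 0.222, 0.347 and 0.177 counts per P-site. With a minimum of 0.5 counts per P-site these genes did not enter, and 4 subunits were higher. Cct2 rose by 0.32 ± 0.02, Cct7 by 0.27, Cct4 by 0.23 and Cct5 by 0.09 (log2; SE for the first). Scaling by library totals left 4 higher and took away the calls of Cct3 and Cct5 (0.04, edgeR adjusted p = 0.11 for Cct5). With the length trend subtracted Cct5 had 0.14.

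Structural microtubule-associated proteins went both ways, with 6 of 21 higher and 4 lower. Map1b and Map1a, stabilizing proteins best known from neurons, were higher. Map1b had 323 and 338 CPM in PE libraries, against 224 and 214 CPM in control libraries, a log2 fold change of 0.60 ± 0.03 (SE). Map1a rose by 0.42 ± 0.03, or by 0.75 with the length trend subtracted. The giant linkers of actin and microtubules, Macf1 and Dst, had log2 fold changes of -0.53 ± 0.02 and -0.55 ± 0.03 (SE). Both ORFs are long. With the length trend subtracted the values were -0.00 and -0.02 and did not pass (edgeR adjusted p of 0.94 and 0.72). This left 1 gene of the list lower, Mtus1. Mtus1 had a log2 fold change of -0.81 ± 0.05 (SE), and of -0.85 to -0.66 over 11 alternative settings. With DESeq2 the list had 3 genes higher.

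Of 14 plus-end, destabilizing and severing proteins, 5 were higher and 6 lower. With DESeq2 these counts were 3 and 3, and without PE replicate 1 or control replicate 2 only 3 were higher. With the length trend subtracted they were 6 higher and 2 lower. The plus-end proteins Mapre1 (EB1) and Clip1 rose by 0.24 and 0.34 on the log2 scale, and with the length trend subtracted Clip1 had 0.51. Mapre3 (EB3) rose by 0.30, a call lost without control replicate 2 (0.19, adjusted p = 0.062 in edgeR). The severing enzyme Fign had 7.10 and 4.06 CPM in PE libraries, against 12.1 and 12.1 CPM in control libraries, and fell by 1.12 ± 0.19 (log2, SE). Stathmin (Stmn1), which sequesters tubulin dimers, had -0.38 ± 0.14 with 0.201 counts per P-site. It passed with all libraries (adjusted p = 0.025 in edgeR) but not with DESeq2 (0.18) or when PE replicate 1, PE replicate 2 or control replicate 2 was left out (0.074, 0.095 and 0.12).

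Of 14 tested enzymes that modify tubulin, 3 were higher and 1 lower. The polyglutamylases Ttll7 and Ttll1 rose by 0.93 ± 0.13 and 0.52 ± 0.15 (log2, SE), and Ttll12 by 0.33. Ttll1 lost its call without control replicate 1 (0.33, adjusted p = 0.13 in edgeR) and with DESeq2 (adjusted p = 0.078). The lower gene was the deacetylase Sirt2, at -0.15, a call lost with DESeq2 and without any of 3 libraries (adjusted p of 0.074 to 0.22). The enzymes of the tyrosine cycle were low in footprints. The ligase Ttl had 12.9 and 13.3 CPM in PE libraries, against 11.0 and 11.5 CPM in control libraries, and its log2 fold change of 0.22 ± 0.14 (SE) did not pass (adjusted p = 0.21 in edgeR). The detyrosinating peptidases Vash1 and Vash2 had log2 fold changes of -0.02 ± 0.27 and -0.14 ± 0.30, and their partner Svbp -0.32 ± 0.19 (SE). The acetyltransferase Atat1 had 0.83 ± 0.46 with 0.068 counts per P-site, and the deacetylase Hdac6 was not tested, with 0.00453 counts per P-site.

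Kinesins and dynein are the motors that run on microtubules. Of 13 kinesin genes, 5 were higher and 3 lower. The heavy chain of conventional kinesin, Kif5b, had 1435 and 1406 CPM in PE libraries, against 679.6 and 646 CPM in control libraries. The groups were far apart, with a log2 fold change of 1.1 ± 0.02 (SE) and an adjusted p = 1.2e-28 (edgeR). Kif1b rose by 0.38, while the light chain Klc4 fell by 0.57 and Kif13a by 0.48 on the log2 scale, and Kif13a by 0.27 with the length trend subtracted. Of 16 dynein and dynactin genes, 7 were higher and 0 lower. Of the 5 light chains in the list, Dynll1 rose by 0.52, Dynlrb1 by 0.35, Dynlt3 by 0.83 and Dynlt1 by 0.41 (log2). The fifth, Dynll2, had -0.10 ± 0.06 and was not called, but with the length trend subtracted it was lower (-0.21, edgeR adjusted p = 0.0044). The heavy chain Dync1h1 had 0.000328 counts per P-site and could not be tested.

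Of 10 genes of microtubule nucleation, 0 were higher and 5 lower. The centrosomal scaffold Pcnt had 28.6 and 30.7 CPM in PE libraries, against 48.0 and 48.6 CPM in control libraries, and fell by 0.70 ± 0.08 (log2, SE), or by 0.38 with the length trend subtracted. The γ-tubulin ring proteins Tubgcp6 and Tubgcp2 fell by 0.80 and 0.32. The Golgi scaffold Akap9 had -0.31, but was 0.08 and not called once the length trend was subtracted (edgeR adjusted p = 0.073), and 3 genes of the list were then lower.

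**Figure D5:**
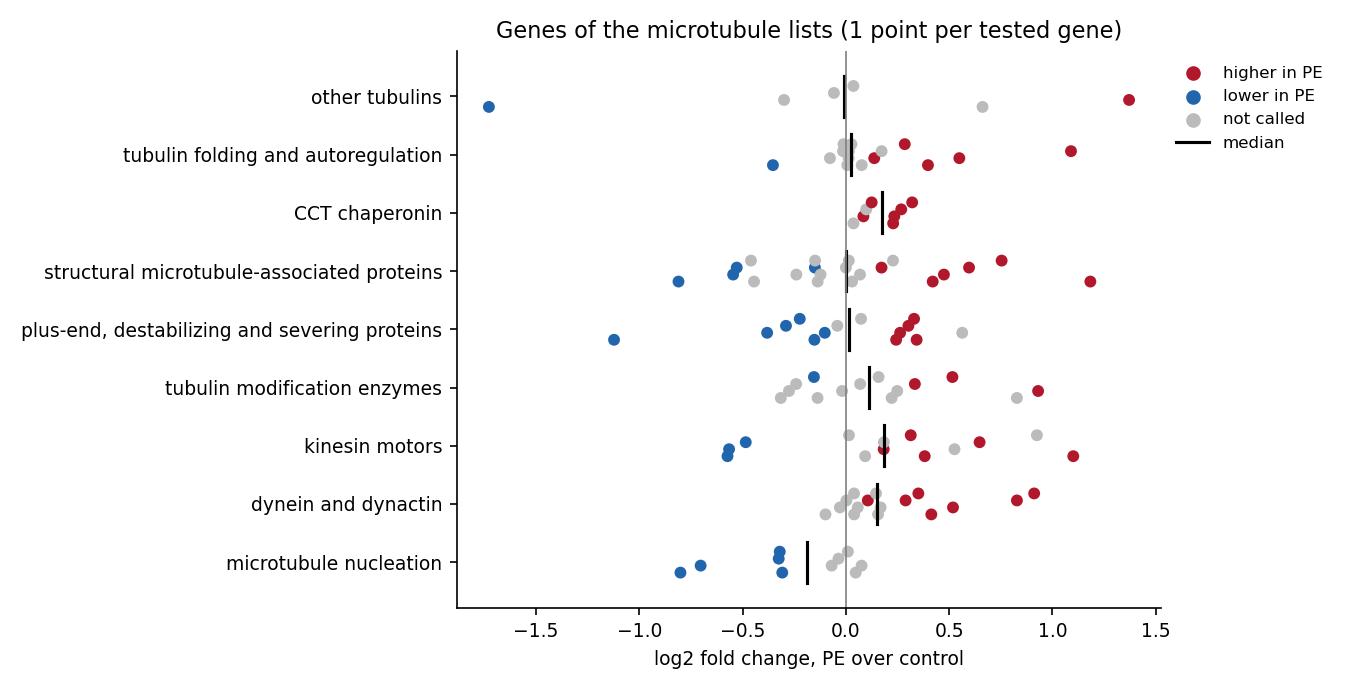
log2 fold change of PE over control (horizontal axis) for each tested gene of the 9 microtubule lists, 1 point per gene, with a black line at the median of the list. Red points were higher in PE, blue lower and grey not called. Points of the CCT and dynein lists that passed lie to the right of 0, and those of the nucleation list to the left.

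By a rule of likeness, the genes whose centred log2 CPM over the 4 libraries lay nearest to that of Tubb5 were Alpk3, Lrrc59, Hspb1, Dsg2 and Ube2m, of 5763 genes with at least 1000 counts. Their root-mean-square distances to Tubb5 were 0.0058 to 0.0091 on the log2 scale. The members had been left out of the 5763 genes and were measured apart, so their absence from the nearest genes was set by the rule. Of the other tubulin members, Tuba4a was nearest to Tubb5, at a distance of 0.10, which ranked 991 against the 5763 genes. With 4 libraries in 2 groups, this measure mostly compares the size of the change.

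Library totals over all ORFs were 12117629 and 12537740 in PE and 11446574 and 13827599 in control libraries. Beside the marker counts that follow, 22.3% of all genes with a tested annotated ORF were higher and 22.8% lower. For genes averaging at least 500 counts per library these shares were 36.9% and 30.3%. Of 7 cardiomyocyte markers, 2 were higher (Nppa and Tnnt2) and 5 lower, and all were plentiful. Summed CPM over these 7 markers was 64058 and 64422 in PE and 57053 and 57065 in control libraries. Without Nppa, which hypertrophic growth is known to induce, it was 46322 and 46568 in PE and 52085 and 52244 in control libraries, so the higher sum came from Nppa. Myh6 had 2614 and 2689 CPM in PE and 6562 and 6610 CPM in control libraries, a large part of that fall. It had 0.19 counts per P-site, so its counts cover a small part of its P-sites. Footprints of other cell types that may contribute tubulin moved as well. Of 5 tested fibroblast markers, 4 were lower and 1 (Dcn) higher, and their sum was 17556 and 17751 CPM in PE and 25787 and 25955 CPM in control libraries, without a part for Col1a2, which had 0 to 2 counts per library beside 158850 P-sites. Of 5 macrophage markers, 5 were lower (269.9 to 279 CPM in PE, 410 to 433 in control). Of 4 endothelial markers, 3 were lower (119.8 to 126 against 207 to 214 CPM). Of 4 smooth muscle markers, 3 were lower and 1 (Cnn1) higher (1254 to 1255 against 1417 to 1427 CPM). Schwann cell markers summed to at most 2.76 CPM. Of 10 markers of dividing cells, 2 were higher and 3 lower, with sums of 511 to 523 CPM in PE and 521 to 522 CPM in control libraries. In such bulk samples fewer cells of a type and less RNA per cell cannot be told apart, and the part of these cells in the tubulin values was not tested.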

How the data were processed

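The authors deposited raw counts of ribosome footprints per ORF for 18847 ORFs in each of 4 libraries. A second table holds, per the file headers, the log2 fold changes of their DESeq2 comparison with raw and adjusted p-values, a normalized mean count (a signal, not used here), ORF class, ORF length and pooled P-sites. The build Rnor_6.0 and the tools STAR 2.4.2a, Bowtie 1.1.2 and cutadapt 2.0 come from the submitters' processing notes. For the ORF caller and the counting program, a name is not given in the sources used here. Per-sample columns left unused numbered 0. Groups come from the sample titles, since the treatment protocol given for every sample describes PE.

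Counts were filtered with filterByExpr, scaled by TMM (factors 0.982 to 1.02) and fitted in R 4.3.3 with edgeR 4.0.16 (quasi-likelihood, robust) over all 12609 ORFs, without a replicate term, with Benjamini-Hochberg adjustment at 0.05. Each SE is the absolute log2 change over the root of its F statistic. DESeq2 1.42.0 was an alternative. At a common biological coefficient of variation of 2.18%, small changes pass. Replicates differed by more than sampling noise (chi-square per degree of freedom 1.60 in PE, 1.61 in control). The script was tested on simulated counts.

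The members and lists were chosen with earlier results of these data known. Beside all members and the 5 genes nearest to Tubb5, named list genes were up to 4 per list with the smallest p, plus Ttl, Vash1, Vash2, Svbp, Atat1, Hdac6, Stmn1, Ttc5, Tuba1a and Tuba8. Others are named beside a count or a list they belong to, after their values were seen. Protein differences were counted after global alignment (BLOSUM62). Promoters are from RefSeq on GRCr8, matched by symbol.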

Additional observations from a re-analysis of the deposited data

How the results depend on the processing

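Leaving out 1 library leaves a lone sample in its group, which is assumed to vary like the other group. Over the settings run (RLE size factors, library totals, no low-count filter, DESeq2, a replicate term, each library left out, the length trend removed, a minimum of 0.5 counts per P-site, ORFs summed per gene), Tubb5, Tubb4b, Tubb6, Tuba4a and Tuba1b kept direction and call wherever they entered the fit. With at least 0.5 counts per P-site, 0 members were lower, since Tuba1b does not enter. DESeq2 called 1793 ORFs higher and 1799 lower, where edgeR called 2696 and 2690, and gave Tubb3 0.25 (adjusted p = 0.085). With the length trend removed, 12 genes of the microtubule lists were lower in place of 21, Map4 had 0.32 and passed, and Akap9 turned to 0.078; the cause was not tested. The log2 ratio of the summed α members was 0.12, 0.072 with library totals and 0.45 with Tuba1a added; that of the β members was 0.49, and 0.45 with library totals. Leaving out 1 library gave log2 fold changes of 0.17 to 0.62 for Tuba1c and 0.12 to 0.36 for Tubb3. Relative to their families it gave 0.077 to 0.10 for Tuba4a, -0.47 to -0.32 for Tubb2a and -0.36 to -0.14 for Tubb3. Replicate numbers are shared between groups, but same-numbered libraries did not deviate together (r = 0.01 over 8282 ORFs). A replicate block called 2726 ORFs higher and 2721 lower and changed no member's call. Few counts limit Tuba1c, Tubb2a, Tubb2b and Map4, with at most 203.8 per library on average. Tuba1c and Map4 nevertheless had 36884 and 34497 P-sites, with 0.00938 and 0.0236 counts per P-site.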
